A study of Mus musculus with 8 samples.

Results

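The genes described here are the cytochrome P450s of families 1 to 4, the flavin-containing monooxygenases and 6 of their partners (Aldh1a1, Aldh1a7, Aldh3a1, Ephx1, Por and Ahr), picked by gene name from the annotation of the array. They came to 82 of the 36163 gene names on the array and were read by 109 probes. There were 70 P450s, 6 flavin monooxygenases and the 6 partners. Of the 82, 51 were measured, meaning that a probe was well above background on at least 3 of the 4 arrays of a group, and 43 were well above background on all 8 arrays. The other 31 did not reach this mark, and 23 of these were not well above background on any array.

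Whole-lung total RNA was hybridised to 1-colour Agilent arrays, 1 array per sample. All 8 samples came from C57BL/6 mice that had received lipopolysaccharide (LPS, the endotoxin of Gram-negative bacteria) 12 h earlier. The 4 wild-type samples carried no stated deletion, and the 4 knockout samples came from mice with a lung-specific deletion of GGPPS1, gene symbol Ggps1. This enzyme makes geranylgeranyl diphosphate, a lipid anchor of small GTPases such as the Rab proteins. Every sample was exposed to LPS, and no untreated lung was analysed here, so the comparison is between genotypes under LPS and not between LPS and rest. The promoter that drove the deletion, the age and sex of the mice, the LPS dose and whether each sample was 1 mouse are not given in the sources used here. P-values therefore measure the spread between these samples.

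P450s are haem enzymes of the endoplasmic reticulum that insert oxygen into drugs, pollutants, fatty acids and steroids, with electrons passed on from NADPH by the reductase Por. Flavin monooxygenases do a related job on nitrogen- and sulphur-bearing compounds without haem, and epoxide hydrolase and aldehyde dehydrogenases remove reactive products of such oxidations. In the mouse lung this chemistry is known to be concentrated in the club cells of the airway, with further P450s and flavin monooxygenases in alveolar type 2 and endothelial cells, and Cyp1a1, Cyp1b1 and Aldh3a1 are classical targets of the aryl hydrocarbon receptor (AhR, gene Ahr).

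The arrays held 55681 probes, of which 60.4 to 64.3% were well above background in wild-type and 56.9 to 60.4% in knockout samples. Each of the 10 alveolar type 2 markers, among them Sftpc and Sftpd, and the club cell marker Scgb1a1 were well above background on all 8 arrays, as the tissue label implies. Wild-type samples lay in row 1 of the single slide and knockout samples in row 2, so slide position and genotype cannot be told apart. Wild-type replicate 2 and knockout replicates 2 and 4 were the 3 libraries highest in both adipocyte and cardiac muscle markers, whose list means ran from -3.63 to 2.90 and from -0.75 to 3.75 over the 8 samples, and for members described below, differences that moved by over 1.5 times without these 3 libraries are given both ways, those of Cyp2u1, Cyp2r1 and Cyp3a13 with the processing alternatives. In bulk tissue, fewer cells of a type and less RNA per cell cannot be told apart. The targeted gene, Ggps1, was at 1.26, 1.34, 1.26 and 1.40 in wild-type replicates 1 to 4 and at 1.32, 1.24, 1.22 and 1.24 in knockout replicates 1 to 4, a difference of -0.06 ± 0.068 (SE; limma, adjusted p = 0.613). Which stretch of the gene was deleted is not stated in those sources either, so its probe is no check of the labels. Levels are log2 signals set against each array's 75th percentile, a difference is the knockout mean less the wild-type mean in log2 units, and sample values are listed in replicate order 1 to 4.

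No member passed the threshold of an adjusted p under 0.05 (limma with Benjamini-Hochberg adjustment), where 15 of all 24464 genes did (0.0613%). At an unadjusted p under 0.05, 5 members were higher in knockout samples (9.8% of 51, against 10.2% of all genes): Cyp2a4, Cyp1a1, Cyp2f2, Aldh1a7 and Ephx1. In the other direction, 3 members were lower (5.88%, against 13.4% of all genes): Fmo5, Cyp4f16 and Cyp4f39. Both shares were near or under the background. With normexp background correction the split was 9 higher and 2 lower (17.6% and 3.92%, against 13.2% and 12.1% of all genes). With each array centred on its median it was 5 and 5 (9.8% each, against 7.26% and 16.9%). The higher count was 8 (15.7%) without wild-type replicate 1, and also without knockout replicate 1 or 4, where all genes gave 10.2%, 8.47% and 7.9%. The lower count was 5 without knockout replicate 2 (9.8%, against 13.2%) and 7 without knockout replicate 3 (13.7%, against 12.5%). Without the 3 libraries rich in adipocyte and cardiac markers there were 5 higher and 6 lower (9.8% and 11.8%, against 7.09% and 9.71%). Some of these lower members had passed the filter through the wild-type group alone. They were Cyp2w1 (median centring, without knockout replicate 2, and without the 3 libraries), Cyp4a12b (without the 3 libraries) and Cyp3a11 (without knockout replicate 3).

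The members varied more between samples than all genes did at the median, which is given here as a description. Their median difference was 0.041 (-0.015 with median centring), with 28 of 51 above 0 (54.9%, against 45.7% of all genes), so they had no common direction. The median size of a difference, whatever its sign, was 0.339 among members and 0.18 among all genes. The median range over the 8 samples was 1.06 against 0.655, and the median SD within a group was 0.309 against 0.193. A range over 2 was seen in 8 members (15.7%) and in 6.58% of all genes.

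**Figure D1:**
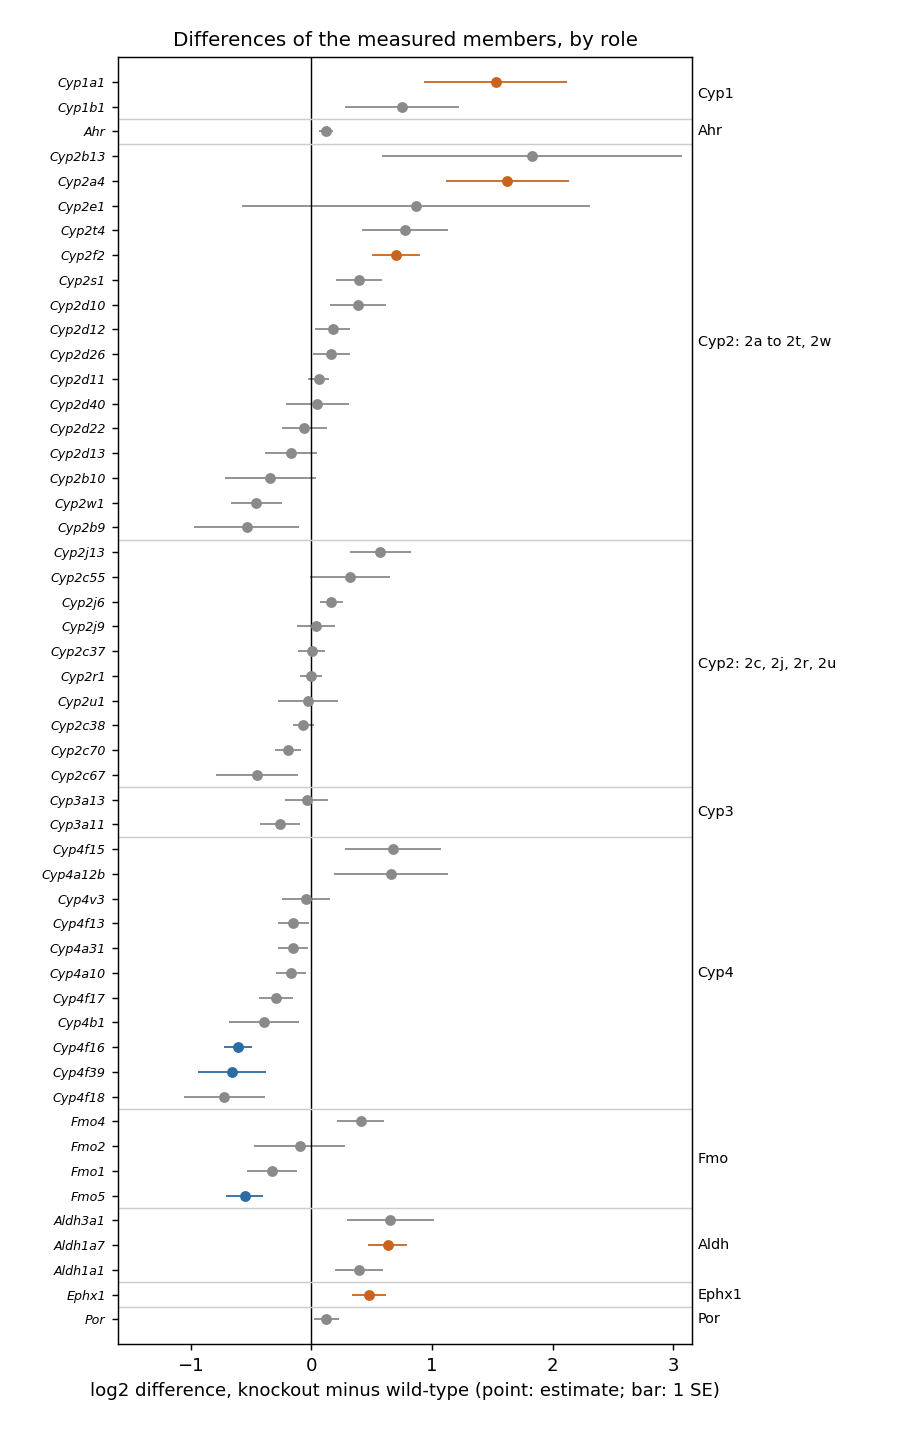
Log2 difference (horizontal axis, knockout minus wild-type, bar 1 SE) of the 51 measured members, grouped by role; orange and blue points have an unadjusted p under 0.05, grey ones do not. The 8 coloured genes are spread over 6 of the roles, and in the Cyp4 block 9 of 11 points lie left of 0.

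By family, both measured Cyp1 genes and all 6 partners had positive differences (medians 1.14 and 0.435), where 45.7% of all genes did. By contrast, 9 of the 11 measured Cyp4 genes had negative ones (median -0.17). These directions of the 3 groups were the same under every background correction, normalization and centring tried. They were also the same without the 3 libraries rich in adipocyte and cardiac markers, but there the median of the partners was 0.137. The Cyp2 family was mixed, with 17 of 26 positive and a median of 0.056, and its sign counts depended on the scaling: 20 positive with normexp and 13 with median centring. Of the 4 measured flavin monooxygenases, 1 was positive and 3 were negative. Both Cyp3 genes were slightly negative, and both turned positive with normexp.

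The Cyp1 family is under the control of Ahr. AhR binds planar aromatic compounds and, with its partner Arnt, switches on genes through the core motif GCGTG (on the other strand CACGC). The RefSeq promoters of the 2 measured family members are shown because each holds 1 such core, in capitals, within the 250 bases before the gene's start (build GRCm38.p6, each written 5′ to 3′ on the strand of its gene).
Cyp1a1, chr9:57697363-57697612, plus strand: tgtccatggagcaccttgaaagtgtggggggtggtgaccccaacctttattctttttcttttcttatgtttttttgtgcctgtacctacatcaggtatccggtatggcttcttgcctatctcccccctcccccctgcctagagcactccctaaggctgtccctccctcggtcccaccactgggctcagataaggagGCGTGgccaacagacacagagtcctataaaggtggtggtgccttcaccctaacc
Cyp1b1, chr17:79715062-79715311, minus strand: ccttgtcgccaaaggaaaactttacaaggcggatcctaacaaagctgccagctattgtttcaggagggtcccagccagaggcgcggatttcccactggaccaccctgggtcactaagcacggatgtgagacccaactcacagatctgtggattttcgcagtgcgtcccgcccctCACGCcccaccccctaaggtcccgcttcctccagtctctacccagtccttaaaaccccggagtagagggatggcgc
The core lay 54 bases before the start of Cyp1a1 and 76 bases before that of Cyp1b1. It was found, on either strand, in 8338 of 27025 RefSeq promoters cut to the same 250 bases (30.9%) and in 12 of the 64 promoters matched to members (18.8%), so its presence is common and only describes these windows. The promoters of Ahrr and Tiparp, also known AhR targets, held 3 and 1 cores, and those of Cyp1a2 and Nqo1 held none in this window.

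Cyp1a1, which oxidises polycyclic aromatic hydrocarbons, was read by a probe at chr9:57551535-57551594 (mm9). Its level was -2.74, -2.59, -3.34 and -4.15 in wild-type samples and -1.13, -2.47, -0.32 and -2.79 in knockout samples. Knockout replicates 1 and 3 stood far above all wild-type samples, replicate 2 was just above the highest of them, and replicate 4 lay within their range. The difference was 1.53 ± 0.59 (SE, 2.88-fold; limma, adjusted p = 0.176). Replicates 2 and 4 are also the knockout libraries rich in adipocyte and cardiac markers, and without them and wild-type replicate 2 the difference was 2.69 (limma, adjusted p = 0.164; 0.139 to 0.304 over all alternatives).

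Cyp1b1, which shares many substrates with Cyp1a1 and also oxidises oestrogens, was at 0.53, 1.61, 0.20 and -0.10 in wild-type and at 0.88, 1.54, 0.53 and 2.30 in knockout samples. The groups overlapped, and the pattern of high samples was not that of Cyp1a1: wild-type replicate 2 and knockout replicates 2 and 4 were the highest. Its difference of 0.75 ± 0.47 did not pass (limma, adjusted p = 0.358), and it was 0.49 without these 3 libraries. Cyp1a2, best known as a liver enzyme, was never well above background.

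Ahr itself (probe at chr12:36182724-36182783, mm9) was at 2.19, 2.11, 2.20 and 2.13 in wild-type and at 2.29, 2.27, 2.29 and 2.27 in knockout samples. All knockout values exceeded all wild-type values on this probe, but the gap was small, 0.12 ± 0.06 or 1.09-fold (limma, adjusted p = 0.269). A much dimmer second probe gave 0.069 with overlapping groups. On the brightest probe of each gene, complete separation was seen for 3 members with knockout samples higher (Ahr, Aldh1a7 and Cyp2f2; 5.88%, against 6.1% of all genes) and for 2 with knockout samples lower (Cyp4f16 and Fmo5; 3.92%, against 9.21%). Among other AhR genes, Arnt differed by 0.00 ± 0.094, the repressor Ahrr by -0.11 ± 0.23 and Tiparp by 0.18 ± 0.16. The quinone reductase Nqo1, a target of both AhR and NRF2, was higher by 0.49 ± 0.11 with separate groups (limma, adjusted p = 0.0754).

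**Figure D2:**
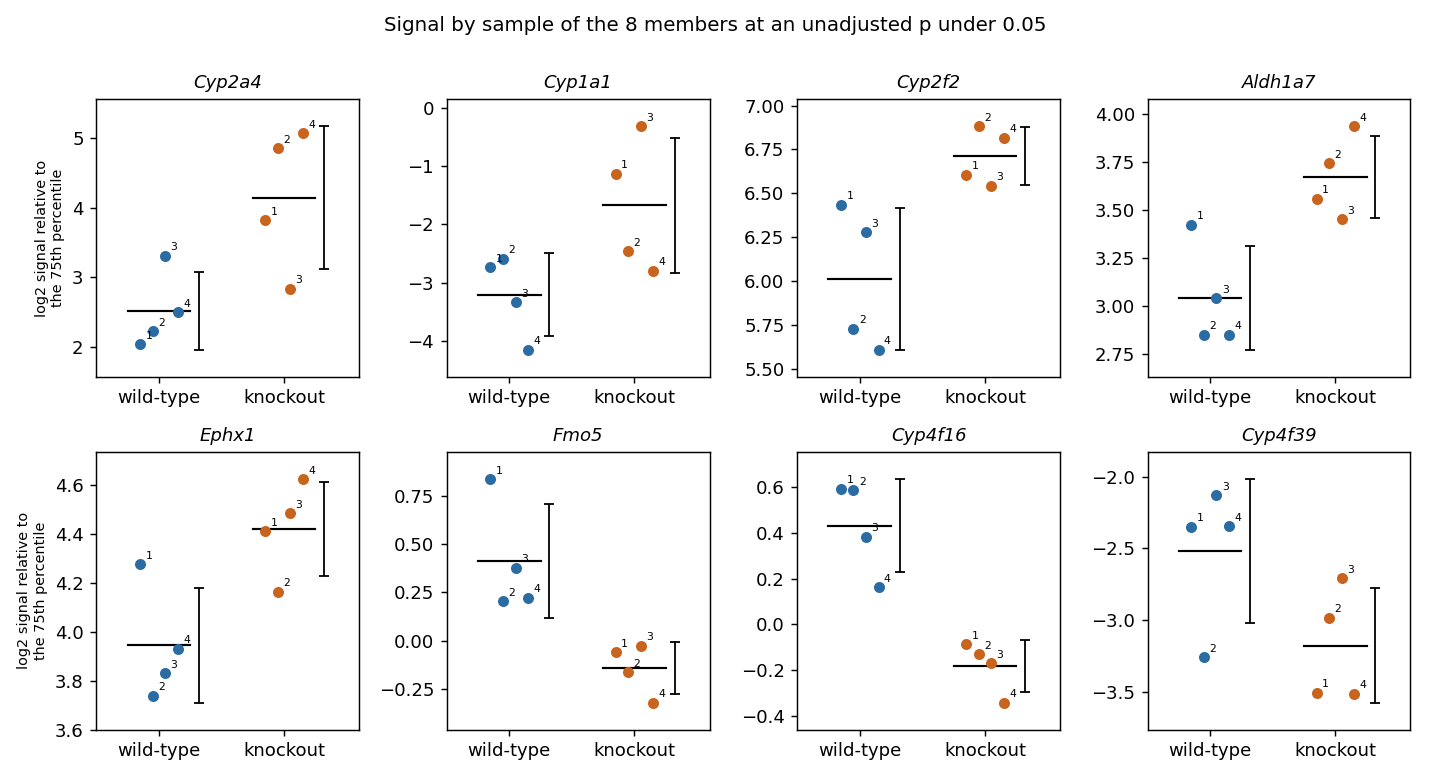
Level of the 8 members with an unadjusted p under 0.05 in each sample (vertical axis, log2 signal against the array's 75th percentile; numbers are replicates; line, mean; bar, SD, 4 samples a group). Cyp4f16, Fmo5, Aldh1a7 and Cyp2f2 have groups that do not overlap, while Cyp1a1, Cyp2a4, Ephx1 and Cyp4f39 each have at least 1 sample inside the other group's range.

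In family 2, 16 genes of airway and general xenobiotic oxidation were measured. None passed the adjusted threshold. At an unadjusted p under 0.05, 2 of the 16, Cyp2a4 and Cyp2f2, were higher in knockout samples, against 10.2% of all genes. Cyp2a4 is a steroid hydroxylase nearly identical to the coumarin hydroxylase Cyp2a5, for which the array has no probe by name, so the signals of the 2 genes cannot be told apart. One of its 2 probes is shown because it lies upstream of the brighter one and gave almost the same difference. It starts at base 1272 of the transcript and maps to chr7:27098659-27099724 (mm9, plus strand), a span of 1066 bases for 60 letters, which places it across an exon junction.
Cyp2a4 probe, 5′ to 3′: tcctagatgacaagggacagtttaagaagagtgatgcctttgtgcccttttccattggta
Its difference was 1.59, against 1.62 for the brighter probe (chr7:27099880-27099939). The brighter probe matched an unnamed probe of the array at 52 of 56 bases.

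On the brighter probe, Cyp2a4 was at 2.04, 2.23, 3.31 and 2.50 in wild-type and at 3.82, 4.85, 2.84 and 5.07 in knockout samples. Knockout replicate 3 lay inside the wild-type range and the other 3 above it. The difference was 1.62 ± 0.51 (SE, 3.08-fold; limma, adjusted p = 0.121), and it was 0.71 without the 3 libraries rich in adipocyte and cardiac markers.

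Cyp2f2, the club cell enzyme that turns naphthalene into a toxic epoxide, was read at chr7:27918570-27918629 (mm9). It was at 6.43, 5.73, 6.28 and 5.61 in wild-type and at 6.61, 6.88, 6.54 and 6.82 in knockout samples. The lowest knockout sample was just above the highest wild-type sample, and wild-type replicates 2 and 4 were the low ones. The difference of 0.70 ± 0.20 (1.62-fold) had an adjusted p of 0.101 (limma) and was 0.47 without the 3 libraries.

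Cyp2s1, an airway and skin P450 that AhR ligands induce, was at 4.12, 3.16, 3.66 and 3.63 in wild-type and at 4.07, 3.86, 3.99 and 4.21 in knockout samples. Wild-type replicate 1 was as high as the knockout samples, and the difference of 0.39 ± 0.19 did not pass (limma, adjusted p = 0.254). It was 0.23 without the 3 libraries.

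Markers of club and secretory cells were read on the same arrays. Of the 13 genes of that list 10 were measured, and none passed the adjusted threshold. At an unadjusted p under 0.05, 3 were higher (Cbr2, Scgb3a2 and Lypd2), against 10.2% of all genes. Their summed level, on the same log2 scale, ran from 9.52 to 9.90 in wild-type and was 9.98 or more in every knockout sample. The mean over the list, which weights its genes equally, overlapped between the groups, at 1.70 to 3.38 in wild-type and 2.56 to 4.50 in knockout samples. Cbr2 differed by 0.69 ± 0.12 and the most abundant marker, Scgb1a1, by 0.17 ± 0.072, and Upk3a was never well above background. Of 18 ciliated cell markers 13 were measured and 7 were higher at an unadjusted p under 0.05, against the same 10.2% of all genes. Their summed level was 3.98 to 4.49 in wild-type against 4.48 to 5.27 in knockout samples, and their list mean -0.37 to 0.12 against 0.062 to 1.02. Smooth muscle markers were also highest in knockout replicates 2 and 4, with list means of 2.60 and 2.95, against 0.83 to 1.92 in the other samples. The part of these cell types in the values of Cyp2a4, Cyp2f2, Cyp2s1 and the aldehyde dehydrogenases was not tested.

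The phenobarbital-type genes of subfamily 2b spread widely. Cyp2b10, a target of the constitutive androstane receptor that club cells also express, was at 5.79, 5.45, 5.41 and 5.35 in wild-type and at 5.05, 4.24, 6.25 and 5.09 in knockout samples. The wild-type samples lay close together, and the knockout samples spread on both sides of them, with replicate 3 highest and replicate 2 lowest. The difference was -0.34 ± 0.37 (limma, adjusted p = 0.603), and it turned to 0.14 without the 3 libraries. Without knockout replicate 3 it was -0.70 (limma, adjusted p = 0.143; unadjusted 0.0179; -0.70 and 0.14 are the lowest and highest of its alternatives). Cyp2b9 had a like spread in the knockout samples, -1.39, -2.11, 0.13 and -1.45, against -0.36 to -1.02 in wild-type samples. Its difference of -0.54 ± 0.43 was -0.98 without knockout replicate 3 and -0.079 without the 3 libraries.

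Cyp2b13 and Cyp2e1 had the widest ranges of all members, 5.69 and 5.88. Cyp2b13, best known from female mouse liver, was at -5.06, -3.61, -2.76 and -5.63 in wild-type and at -3.37, -0.88, -5.56 and 0.07 in knockout samples. Cyp2e1, which oxidises ethanol and other small molecules, was at -1.92, 2.47, -0.85 and -3.42 in wild-type and at -1.46, 1.81, -2.40 and 1.79 in knockout samples. High Cyp2e1 was confined to wild-type replicate 2 and knockout replicates 2 and 4, the samples with the highest adipocyte list means of 1.09, 2.74 and 2.90. The remaining 5 samples had adipocyte means between -3.63 and 0.78 (knockout replicate 1). Cardiac muscle list means were also highest in the same 3 libraries, at 3.55, 3.75 and 3.63, against -0.75 to 1.88 in the remaining 5 samples. On genotype, Cyp2e1 differed by 0.86 ± 1.44 (limma, adjusted p = 0.741; second probe 0.97) and Cyp2b13 by 1.83 ± 1.24 (limma, adjusted p = 0.393). Without the 3 libraries these differences were 0.13 and 0.016. Of the 8 adipocyte markers 7 were measured, and the summed level ran from 2.82 to 6.57 in wild-type and from 3.08 to 8.01 in knockout samples, with Adipoq well above background on 2 wild-type and 3 knockout arrays. The part of adipocyte or cardiac RNA in both genes was not tested.

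**Figure D3:**
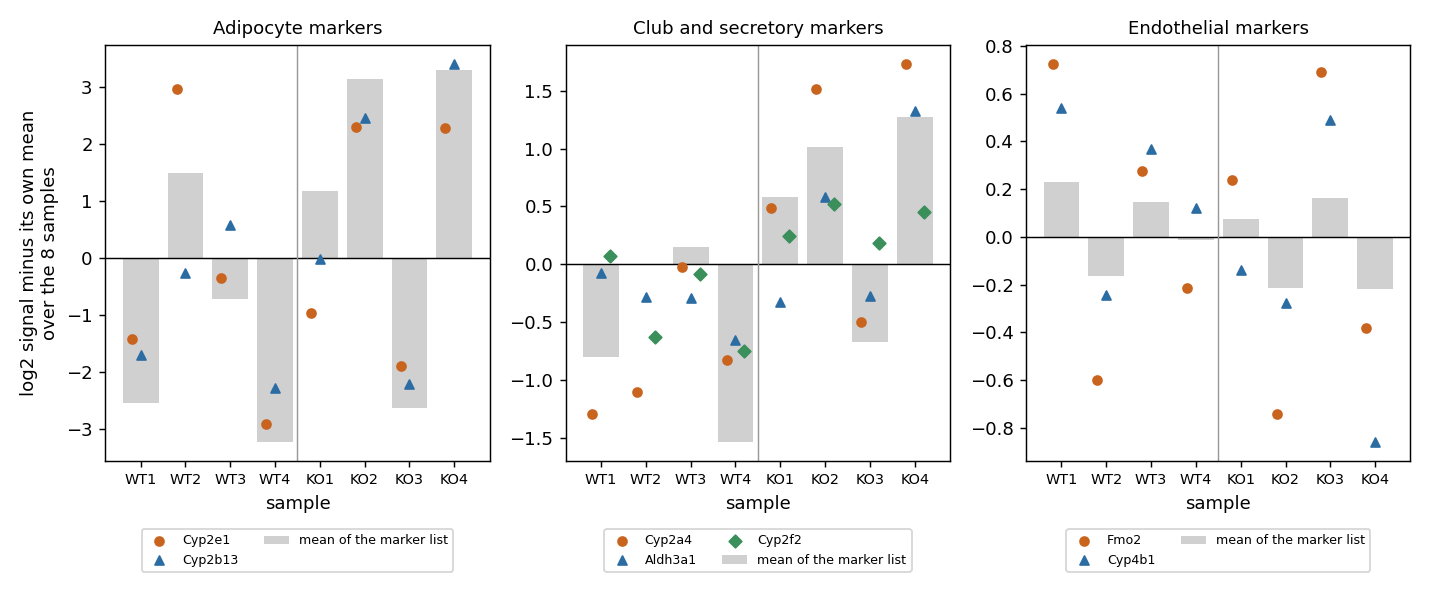
Members (points) beside the mean of a cell type marker list (grey bars) in each sample, every series drawn as log2 signal minus its own mean over the 8 samples (WT, wild-type; KO, knockout). Cyp2e1 is highest in WT2, KO2 and KO4, where the adipocyte bars are also highest, as is the cardiac muscle list (not drawn); Cyp2a4 and Aldh3a1 are highest in KO2 and KO4 with the club cell bars; and Fmo2 is high in WT1 and KO3 and low in WT2 and KO2. The adipocyte bars and the cardiac muscle, smooth muscle and ciliated lists (not drawn) are also highest in KO2 and KO4. The alveolar type 1 and type 2 lists (not drawn) share with the endothelial list lower means in replicates 2 and 4 of each group.

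Of the other measured members of family 2, none had an unadjusted p under 0.05. Cyp2c67 and Cyp2d13 entered through 3 wild-type arrays and no knockout array, and no fold or difference is given for them. The other 6 measured Cyp2d genes, relatives of the enzymes that clear many basic drugs in liver, had differences between -0.058 and 0.39, and between -0.36 and 0.23 without the 3 libraries. The value of -0.36 is that of Cyp2d40, which passed the filter through the wild-type group alone (4 wild-type and 2 knockout arrays). The other 4 measured Cyp2c genes, which oxidise drugs and arachidonic acid, lay between -0.19 and 0.32 (-0.13 and 0.72 without the 3 libraries). The 3 measured Cyp2j genes, which make epoxides of arachidonic acid, lay between 0.041 and 0.57 (-0.073 and 0.77 without the 3 libraries), but for Cyp2j13, the highest, a second probe gave -0.25. Cyp2w1 also passed the filter through the wild-type group alone (4 wild-type arrays, 1 knockout array), and no difference is given for it. Cyp2t4 was at -3.13, -3.47, -3.13 and -3.31 in wild-type and at -1.90, -3.14, -1.70 and -3.20 in knockout samples. Knockout replicates 2 and 4 lay inside the wild-type range. The difference was 0.78 ± 0.36, and 1.39 without the 3 libraries (limma, adjusted p = 0.124, unadjusted 7.95e-05), where only replicates 1 and 3 remained of the knockout group. It was 0.997 without knockout replicate 2, 1.01 without knockout replicate 4 and 0.56 with normexp, and its unadjusted p was under 0.05 in each of these and with the replicate block.

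Cyp2u1, a fatty acid hydroxylase, was at 6.93, 7.93, 7.22 and 7.66 in wild-type and at 7.50, 7.83, 7.06 and 7.24 in knockout samples, fully overlapping (difference -0.03 ± 0.25). Its second probe was well above background on only 2 wild-type and 0 knockout arrays, so the level depends on the probe that was used. Cyp2r1, which adds the first hydroxyl group to vitamin D, lay between -0.68 and -0.35 in wild-type and between -0.65 and -0.47 in knockout samples, a difference of 0.00 ± 0.092.

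Of family 3, the main drug-oxidising family of liver, only 2 of 8 genes were measured. The level of Cyp3a13 was -2.66 ± 0.20 in the wild-type group and -2.70 ± 0.34 in the knockout group (SD, n = 4). Cyp3a11 was well above background on 4 wild-type and 0 knockout arrays, with means of -4.70 and -4.96 (limma, adjusted p = 0.37). It passed the filter through the wild-type group alone, knockout replicate 3 lay above the wild-type mean at -4.62, and with normexp the difference was 0.072, so no fold is given. Hepatocyte markers were scarce too: of 10, 5 were measured, and Apoa1, Ttr, Fgb and Apoh were not well above background on any array.

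Family 4 holds enzymes that hydroxylate the end carbon of fatty acids and leukotrienes, and here most differences were negative. Cyp4f16, at chr17:32688210-32688269 (mm9), was the member with the smallest p. It was at 0.59, 0.58, 0.38 and 0.16 in wild-type and at -0.08, -0.13, -0.17 and -0.34 in knockout samples. Every knockout value was below every wild-type value. The means were 0.43 ± 0.20 and -0.18 ± 0.11 (SD, n = 4), and the difference of -0.61 ± 0.12 (SE, 1.53-fold lower) had an adjusted p of 0.0625 (limma). Its adjusted p fell under 0.05 with normexp (-0.56, adjusted p = 0.0453), with no filter on dim probes (0.0466) and with an intensity trend in the variance (0.0481), and ranged up to 0.233 over the alternatives. It kept an unadjusted p under 0.05 in each of the 18 alternatives, between -0.70 and -0.51.

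Cyp4f39, known from skin as a hydroxylase of very long-chain fatty acids, was at -2.35, -3.26, -2.13 and -2.34 in wild-type and at -3.50, -2.98, -2.71 and -3.51 in knockout samples. Wild-type replicate 2 lay among the knockout samples. The difference of -0.66 ± 0.28 (limma, adjusted p = 0.211) had an unadjusted p under 0.05 in 9 of 18 alternatives, and with normexp it was -0.29.

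Cyp4f18, at chr8:74512381-74512440 (mm9), is the enzyme by which mouse neutrophils inactivate chemotactic leukotriene. It was at 4.94, 5.42, 4.39 and 5.35 in wild-type and at 4.25, 5.08, 3.64 and 4.25 in knockout samples. Knockout replicate 2 was as high as wild-type samples and the other 3 were lower than all of them, so the groups overlapped in 1 sample. The difference was -0.72 ± 0.33 (limma, adjusted p = 0.234) and -0.52 on a second, overlapping probe, and 50 bases of its probe are shared with an unnamed probe. Cyp4f18 had an unadjusted p under 0.05 in 5 of 18 alternatives, with differences of -0.98 to -0.50 over all 18. Its smallest adjusted p was 0.0771 (limma), with the replicate block. All 8 neutrophil markers were measured, with summed levels of 9.77 to 9.98 in wild-type and 9.84 to 9.98 in knockout samples, and 2 of them were lower at an unadjusted p under 0.05 (Cxcr2 by -1.10 ± 0.24, Retnlg by -0.57 ± 0.17). Monocyte and interstitial macrophage markers were lower in 8 of the 10 measured at that p, with summed levels of 7.65 to 8.14 against 6.83 to 7.42. Lymphocyte markers were lower in 5 of 12 and alveolar macrophage markers in 3 of 8, with 0 higher in either list. Of all genes, 13.4% were lower at that p. Lymphocyte list means were 0.17 to 0.37 in wild-type and -0.76 to 0.11 in knockout samples, highest there in replicate 2. The part of these cell types in Cyp4f18 and Cyp4f16 was not tested.

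Cyp4b1, a lung P450 that activates the toxin ipomeanol, was at 5.20, 4.42, 5.03 and 4.78 in wild-type and at 4.52, 4.39, 5.15 and 3.80 in knockout samples. The groups overlapped, with the low end in knockout replicate 4 (difference -0.39 ± 0.29; limma, adjusted p = 0.426; -0.17 without the 3 libraries). The rest of the family, the 3 Cyp4a genes, Cyp4v3 and 3 further Cyp4f genes, lay between -0.29 (Cyp4f17) and 0.67 (Cyp4f15), and between -0.36 (Cyp4a12b) and 0.35 (Cyp4f15) without the 3 libraries. Cyp4a12b turned sign, as it was 0.66 with all samples. It passed the filter through the wild-type group alone (4 wild-type and 2 knockout arrays). The Cyp4a10 and Cyp4a31 probes that gave differences of -0.17 and -0.16 matched each other at 44 of 47 bases. Whether these 2 readings are separate cannot be told. Another pair of their probes matched at 54 of 60 bases, yet the Cyp4a10 one was well above background on 6 arrays and the Cyp4a31 one on 0.

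**Figure D4:**
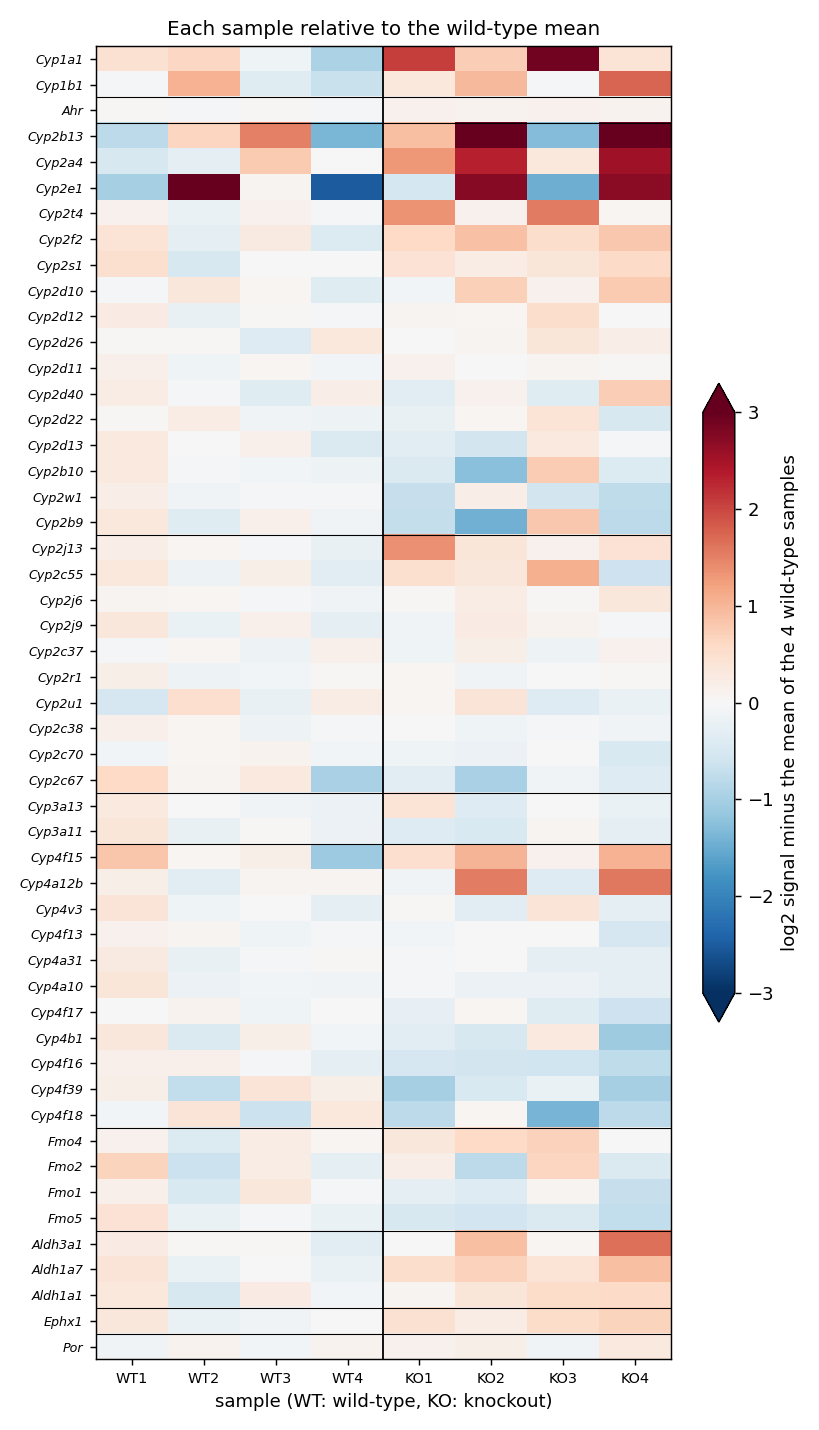
Level of the 51 measured members in each sample minus the mean of the 4 wild-type samples (colour, log2; red above, blue below, darkest at 3 or more), rows grouped by role as in the plot of differences. Cyp2b13 in knockout replicates 2 and 4, Cyp2e1 in wild-type replicate 2 and Cyp1a1 in knockout replicate 3 carry the strongest red, and most Cyp4 rows are pale blue on the knockout side.

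Among the flavin monooxygenases 4 of 6 were measured, and Fmo6 and Fmo9 were not. Fmo5, which also inserts oxygen next to ketones, was at 0.84, 0.21, 0.38 and 0.22 in wild-type and at -0.06, -0.16, -0.03 and -0.32 in knockout samples. The groups did not overlap, and the difference was -0.55 ± 0.15 (1.47-fold lower; limma, adjusted p = 0.0958). Its 2 other probes gave -0.18 and -0.09 with overlapping groups, and the mean of the 3 probes gave -0.27, so the size depends on the probe.

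Fmo2, the main form in the lung of most mammals, was at 4.28, 2.96, 3.84 and 3.34 in wild-type and at 3.80, 2.81, 4.25 and 3.18 in knockout samples. Its variation lay within the groups and not between them: replicates 2 were lowest in both, and the difference was -0.10 ± 0.38 (limma, adjusted p = 0.899; 0.20 without the 3 libraries). The mean of the 10 endothelial markers, all measured, was likewise lower in replicates 2 and 4 of each group than in replicates 1 and 3, with summed levels of 7.60 to 8.06 in wild-type and 7.55 to 8.18 in knockout samples. The same held for the means of the alveolar type 1 markers (3.13 to 4.62 over all samples) and type 2 markers (5.33 to 5.99). The part of these cell types in Fmo2 was not tested. Fmo1 differed by -0.33 ± 0.21 and Fmo4 by 0.41 ± 0.19, and neither passed (limma, adjusted p of 0.364 and 0.245).

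None of the 3 aldehyde dehydrogenases, the epoxide hydrolase and the reductase passed the adjusted threshold. Of these, Aldh1a7 and Ephx1 were higher at an unadjusted p under 0.05, as were 10.2% of all genes. Aldh1a7 (chr19:20767553-20767612, mm9), a close relative of Aldh1a1, was at 3.42, 2.85, 3.04 and 2.85 in wild-type and at 3.56, 3.74, 3.45 and 3.94 in knockout samples. The groups did not overlap, though wild-type replicate 1 came within a few hundredths of knockout replicate 3. The difference was 0.63 ± 0.16 (1.55-fold; limma, adjusted p = 0.0829) and 0.40 without the 3 libraries.

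Aldh1a1, which makes retinoic acid from retinaldehyde, was at 6.50, 5.71, 6.43 and 6.11 in wild-type and at 6.27, 6.56, 6.75 and 6.77 in knockout samples. Its groups overlapped (0.39 ± 0.20; limma, adjusted p = 0.26), and the difference was 0.16 without the 3 libraries. Aldh3a1, which clears aldehydes of lipid peroxidation, was at 4.05, 3.85, 3.84 and 3.48 in wild-type and at 3.80, 4.71, 3.86 and 5.46 in knockout samples. Only knockout replicates 2 and 4 stood above the wild-type range. The difference of 0.65 ± 0.36 (limma, adjusted p = 0.306) was 0.041 without the 3 libraries.

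Ephx1, the microsomal hydrolase that opens the epoxides made by P450s such as Cyp2f2, also had a second reading from an upstream probe, printed here for that reason, which starts at base 831 of the transcript (chr1:182924124-182924183, mm9, minus strand).
Ephx1 probe, 5′ to 3′: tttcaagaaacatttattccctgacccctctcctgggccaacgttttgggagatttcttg
On the brighter probe (chr1:182919689-182919748), Ephx1 was at 4.28, 3.74, 3.83 and 3.93 in wild-type and at 4.41, 4.16, 4.48 and 4.62 in knockout samples. Wild-type replicate 1 exceeded knockout replicate 2, and no other pair crossed. The difference was 0.48 ± 0.14 (1.39-fold; limma, adjusted p = 0.112), with 0.24 on the printed probe, and its unadjusted p stayed under 0.05 in 18 of 18 alternatives (0.36 to 0.59).

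Por, which feeds electrons to every microsomal P450, was the steadiest of this group. It was at 5.10, 5.32, 5.12 and 5.31 in wild-type and at 5.33, 5.40, 5.12 and 5.50 in knockout samples, with overlapping groups and a difference of 0.12 ± 0.10 (limma, adjusted p = 0.485; 0.046 without the 3 libraries).

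**Figure D5:**
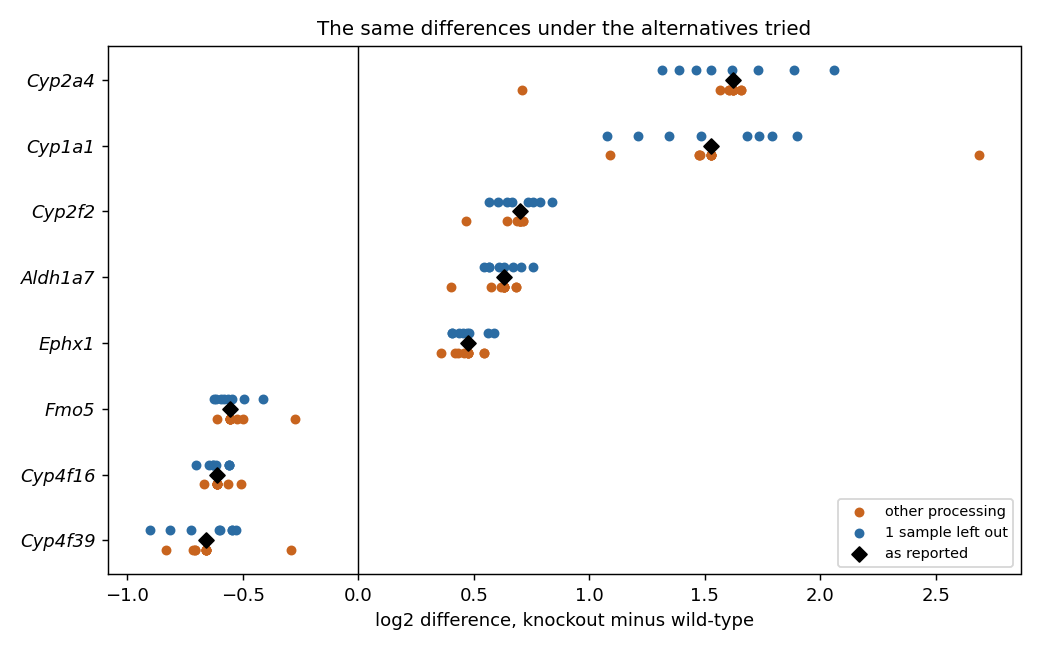
The 8 members with an unadjusted p under 0.05 as reported (diamonds), with each sample left out in turn (blue) and under the other processing, including the fit without the 3 libraries (orange); horizontal axis, log2 difference, knockout minus wild-type. No point crosses 0; the widest spreads are those of Cyp1a1 (1.07 to 2.69) and Cyp2a4 (0.71 to 2.06).

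Of the members that were not measured, those in family 2 were Cyp2a12, Cyp2a22, Cyp2b19, Cyp2b23, Cyp2c29, Cyp2c39, Cyp2c44, Cyp2c50, Cyp2c54, Cyp2c65, Cyp2c66, Cyp2c68, Cyp2d9, Cyp2d34, Cyp2g1 and Cyp2j5. In family 3 they were Cyp3a16, Cyp3a25, Cyp3a41b, Cyp3a44, Cyp3a57 and Cyp3a59, and in family 4 Cyp4a12a, Cyp4a14, Cyp4a32, Cyp4f14, Cyp4f40 and Cyp4x1. Cyp4a12a came closest, with its probe well above background on 2 arrays of each group.

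Other genes of xenobiotic metabolism were taken from lists of 121 names, of which 96 were measured. None passed the adjusted threshold, and at an unadjusted p under 0.05, 16 were higher (16.7%) and 8 lower (8.33%) in knockout samples, against 10.2% and 13.4% of all genes. By list, with those shares of all genes as the background, among the 36 measured conjugating and hydrolysing enzymes 7 were higher and 1 lower, among 25 further aldehyde, carbonyl and epoxide enzymes 7 and 1, among 11 genes of electron supply and haem 1 and 3, among 12 receptors and AhR partners 1 and 0, and among 12 other P450s 0 and 3.

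The smallest p-values belonged to the carboxylesterase Ces1e (0.97 ± 0.17; limma, adjusted p = 0.0591), the aldo-keto reductase Akr1b8 (0.72 ± 0.14) and Cyb5r1, a reductase of the cytochrome b5 system (-0.44 ± 0.088). Next came monoamine oxidase Maob (1.02 ± 0.21), the glutathione transferase Gsta4 (0.82 ± 0.18), Nqo1, the esterase Ces1f (1.81 ± 0.42) and the P450 of unknown substrate Cyp20a1 (-0.34 ± 0.078). Each of these 8 had groups that did not overlap.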

How the data were processed

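The 8 deposited scanner files hold an intensity for each spot from Agilent Feature Extraction 10.7.1.1, per the file headers, already background-subtracted and detrended in the processed signal, with surrogate values for spots too dim to measure. Coordinates are those of the files (mm9). The authors' log2 values in the deposited table, which have nearly the same median in every column (5.64) and r above 0.999 with the processed signal, served as an alternative.

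From these, control and outlier spots were left out, spots of a probe averaged, and log2 processed signal set relative to each array's 75th percentile. Probes well above background on 3 or more of 4 arrays of a group were kept, with the brightest probe per gene name. The groups of 4 entered limma 3.58.1 under R 4.3.3 (lmFit, eBayes, two-sided) and Benjamini-Hochberg adjustment over 24464 genes, a fit tested on simulated data. Array number limits precision. Of 109 member probes, 107 matched the GRCm38.p6 gene table by accession, 106 under the same symbol; Cyp2c44 is Cyp2c23 there.

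Members, gene lists and marker lists were chosen with earlier results of these data known; 2 genes that the rule or a list would take are not reported here and left out of the counts. Named in the text are members at an unadjusted p under 0.05, those with the highest levels, overall or in their role, or the widest ranges, families Cyp1 and Fmo, the partners, and the 8 other genes with the smallest p; further members are given only as range ends or examples. Alternatives were other background correction, normalization, centring, filters, probe means, variance trend, replicate block, the deposited table and each sample left out; leaving out 3 libraries was added after seeing the data.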

Additional observations from a re-analysis of the deposited data

How the results depend on the processing

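The count of members past the adjusted threshold was 0 as reported and 1 (Cyp4f16) with normexp, with no filter on dim probes and with an intensity trend, and it was 0 with each sample left out. With no filter, only the 51 measured members were counted, and the dim members that this setting lets in were not. Members higher at an unadjusted p under 0.05 numbered 9 with normexp (13.2% of all genes) and 4 to 8 with a sample left out (7.48 to 10.5%). Those lower numbered 5 with median centring (16.9% of all genes), 6 without the 3 libraries (9.71%) and 2 to 7 with a sample left out (10.5 to 13.2%). Some of these lower counts hold members that passed the filter through the wild-type group alone. The median difference ran from -0.02 to 0.116 with a sample left out. With the replicate block there were 0 past the threshold, 8 higher and 3 lower (10.5% and 14.6% of all genes), with a median of 0.041. Same-numbered samples deviated together in no steady way (correlations of 0.13, 0.47, 0.012 and -0.29). Only 1 of 4 wild-type samples correlated best with its own number. The labels state no pairing beyond that number, and this check cannot exclude an unstated one. Some differences turned sign. Cyp2r1 was -0.032 with quantile normalization and with the deposited table, -0.056 with median centring, -0.12 with the mean of probes and -0.014 without the 3 libraries (-0.049 to 0.062 with a sample left out). Cyp3a13 was 0.056 with normexp and 0.21 without the 3 libraries (-0.19 to 0.075), and Cyp3a11 was 0.072 with normexp. Without the 3 libraries Fmo2 was 0.20 (-0.34 to 0.13 with a sample left out), Cyp2u1 0.0068 (-0.20 to 0.13), Cyp2b10 0.14 and Cyp4a12b -0.36. The cause of these turns was not tested. Over all genes, 8 were called higher and 7 lower as reported. Those counts were 228 and 284 with normexp, 160 and 257 with an intensity trend, 2737 and 785 with no filter, 59 and 67 with the filter on all 8 arrays, 10 and 33 with the block and 0 and 0 without the 3 libraries.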
